A study of Homo sapiens with 16 samples.

Results

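The 10 genes described here encode the core machinery that transcribes the mitochondrial genome and processes and turns over its RNA. They are POLRMT, TFAM, TFB1M, TFB2M, TEFM, ELAC2, LRPPRC, SLIRP, PNPT1 and SUPV3L1. They were taken by name from the 60662 gene identifiers of the count tables. All 10 were among the 14092 genes that passed the filter on low counts. RNA-seq was done on wild-type Jurkat E6-1 cells, a human T cell line in long use, with lymphoma as the labelled cell type. The 8 control libraries came from untreated cells at 0 h, and the 8 peroxide libraries from cells moved to phosphate-buffered saline with 10 µM hydrogen peroxide and harvested at 4 h. No group kept in saline alone for 4 h was analysed here, so the effects of time, medium and peroxide cannot be told apart. The deposited names place 4 libraries of each group in each of 2 batches, but what distinguishes the batches is not stated there or in the labels. The labels call the libraries biological replicates but do not say that they came from separate cultures. The p-values therefore measure the spread between these libraries, which may be partly technical.

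Mitochondrial DNA is transcribed by its own single-subunit polymerase, POLRMT, together with TFAM, which packages and bends the DNA, and TFB2M, which helps open the promoter. The long transcripts are cut into individual RNAs at the tRNAs that punctuate them. The messenger RNAs are then held by LRPPRC and SLIRP, or degraded by the polynucleotide phosphorylase PNPT1 and the helicase SUPV3L1. All of these proteins are encoded in the nucleus, and many nuclear genes for mitochondrial proteins are known targets of the transcription factor NRF1 and of the ETS factor GABPA.

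Sequence in front of the genes is described first, because NRF1 sites are a well-known feature of genes of this kind. RefSeq start sites (build GRCh38.p14) gave 11 windows for the 10 genes, with 1 window for each gene and 2 for SLIRP. Each window held the 250 bases before the start, and exact matches were sought on both strands. The NRF1 core GCGCANGCG stood in the windows of POLRMT, TFAM, TFB1M and TFB2M, which is 4 of the 10 genes. It stood in 6.56% of all 35116 windows in the table. The stretches below cover 30 bases each in the direction of the gene, with the bases of the NRF1 core in capitals. They are shown because these 4 genes shared a motif, and they include the gene that fell and the gene with the largest rise. The choice was made with the levels known. A link between the motif and the changes in level was not tested.
POLRMT, chr19:633540-633569, minus strand: cggcgcggGCGCATGCGCAGGCGcgggccg
TFAM, chr10:58385337-58385366, plus strand: acgctctcccgCGCCTGCGCcaattccgcc
TFB1M, chr6:155314597-155314626, minus strand: gcaggacttaGCGCATGCGCtctcagcacg
TFB2M, chr1:246566262-246566291, minus strand: aaggctccgctgttCGCATGCGCaggctct

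The POLRMT stretch holds 3 overlapping matches over 15 bases, and the TFB1M stretch 2 overlapping matches over 10 bases. TFAM and TFB2M have 1 match each, both on the strand opposite to the gene. Distances to the start differed, with the first base of the leading match 24 bases before the start in POLRMT, 62 in TFAM, 132 in TFB1M and 16 in TFB2M. The ETS core CCGGAAG was found for POLRMT, TFB1M, ELAC2 and SLIRP, against 8.52% of all windows. The SP1 motif GGGCGG was found for 6 of the 10 genes, against 42.6% of all windows. The AP-1 motif TGANTCA was found for LRPPRC only, against 6.57% of all windows, and the CRE motif TGACGTCA for 0 of the 10, against 1.65%. A match is a string of letters in a window and not evidence of binding, and the activity of NRF1 was not measured here. The transcript of NRF1 itself averaged 46.4 ± 1.46 CPM over the 8 controls and 47.9 ± 6.62 CPM (SD) over the 8 peroxide libraries (log2 fold change 0.04, adjusted p = 0.672 in edgeR's quasi-likelihood test with Benjamini-Hochberg adjustment).

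The libraries held 5556553 to 15720881 reads in genes, and each member had between 65 and 2970 reads in any 1 library. Levels are given as counts scaled to library size (CPM) after TMM scaling. All 14 T cell markers were detected, with a summed level of 4349 to 5249 CPM in controls and 4307 to 5167 CPM after peroxide. In edgeR's test 4 of the 14 were called lower and 0 higher, against 24.3% and 24.1% of all genes. CD3G had a log2 fold change of -0.48. Of the 7 fibroblast or epithelial markers, COL1A2, EPCAM and CDH1 had 0 reads, and the list summed to at most 7.19 CPM in any library. B cell markers summed to 29.8 to 50.7 CPM in controls and 31.9 to 56.1 CPM after peroxide, with 6 of 7 under 1 CPM in each group. Myeloid markers summed to 0.499 to 1.25 CPM in controls and 4.76 to 16.4 CPM after peroxide, and 7 of the 7 averaged under 1 CPM in controls but 3 of the 7 after peroxide. Their part in the members' values was not tested. Reads not aligned uniquely were most frequent in control 1 (47.2% of counted reads) and peroxide 5 (45.8%).

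ELAC2, SLIRP, TFAM, PNPT1 and LRPPRC had the highest levels per length, and TFB1M and TEFM the lowest. Mean CPM was divided by the length of all exons annotated in GENCODE release 29, which can exceed the length of the transcripts in use. In controls ELAC2 was highest at 26.8 ± 5.86 CPM per kb (SD, n = 8). SLIRP (21.7 ± 8.27), TFAM (21.3 ± 3.26), PNPT1 (19.8 ± 2.33) and LRPPRC (18.2 ± 1.03) followed in CPM per kb, and neighbours among these 5 overlapped within 1 SD. POLRMT, TFB2M and SUPV3L1 came next at 14.9 ± 2.19, 13.9 ± 1.47 and 13.5 ± 1.12 CPM per kb, also overlapping within 1 SD. POLRMT and LRPPRC were apart by more than their SDs over the 8 controls. In batch 1 controls they overlapped, at 16.9 ± 0.902 and 17.6 ± 0.906 CPM per kb (SD, n = 4). TFB1M (7.51 ± 0.699 CPM per kb) and the elongation factor TEFM (3.36 ± 0.492 CPM per kb) lay below, each apart from its neighbour by more than their SDs. The order of some genes depended on the batch. SLIRP in controls had 29.1 ± 3.54 CPM per kb in batch 1, next to ELAC2 at 31.9 ± 2.97, and 14.3 ± 1.35 in batch 2 (SD, n = 4 each), where it lay below ELAC2, TFAM, LRPPRC and PNPT1. After peroxide TFAM had the highest mean, 26.1 ± 3.83 CPM per kb, which overlapped those of ELAC2 (24.6 ± 2.26) and SLIRP (24.4 ± 6.46). LRPPRC (18.2 ± 2.03 CPM per kb) then overlapped TFB2M (17.9 ± 1.77). TFB1M and TEFM remained the lowest, at 6.20 ± 0.651 and 3.09 ± 0.345 CPM per kb.

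**Figure D1:**
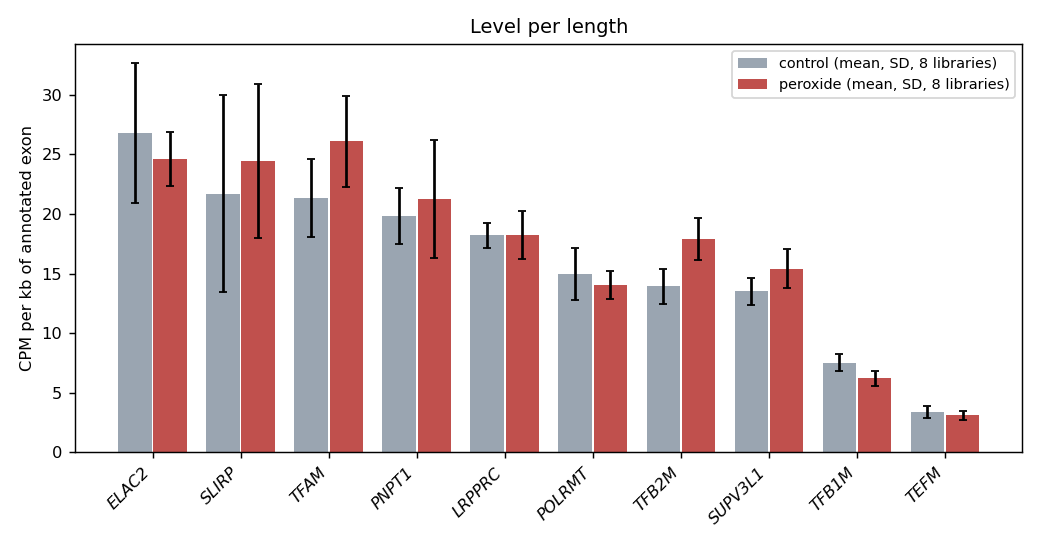
Mean level per kilobase of annotated exon (CPM per kb) for each gene in control (grey) and peroxide (red) libraries, with SD over 8 libraries as error bars. ELAC2 led in controls at 26.8 and TFAM after peroxide at 26.1, and TEFM was lowest in both groups.

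After 4 h of peroxide the group had not moved as a block. TFB2M, TFAM, SLIRP and SUPV3L1 rose, TFB1M fell, and POLRMT, TEFM, ELAC2, LRPPRC and PNPT1 did not pass the test. Calls required an adjusted p under 0.05 in edgeR's quasi-likelihood test, fitted with terms for batch and group, with Benjamini-Hochberg adjustment over all 14092 genes. By this rule 5 of the 10 members were called, against 48.3% of all genes tested, so the share is near that of genes in general. Called higher were 4 of 10 members, against 24.1% of all genes (3391), and called lower 1 of 10, against 24.3% (3419). Log2 fold changes of the members ran from -0.27 to 0.36 with a median of 0.04, beside a median of -0.01 over all genes tested. When libraries were scaled by total counts instead of TMM factors, 2822 of all genes were higher and 4375 lower, and of the members only TFB2M was called higher and TFB1M lower. In 0 of the 10 members did the 8 peroxide libraries lie fully outside the range of the 8 controls, against 11.3% of all genes. Fold changes within a batch come from 1 fit to all 16 libraries, in which both batches share the estimate of spread, unless a batch is said to be fitted alone. Summed over the members, 0.0766% to 0.0931% of reads in genes fell to them in controls and 0.0762% to 0.0937% after peroxide. In bulk RNA, fewer cells of a kind and less RNA per cell cannot be told apart.

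**Figure D2:**
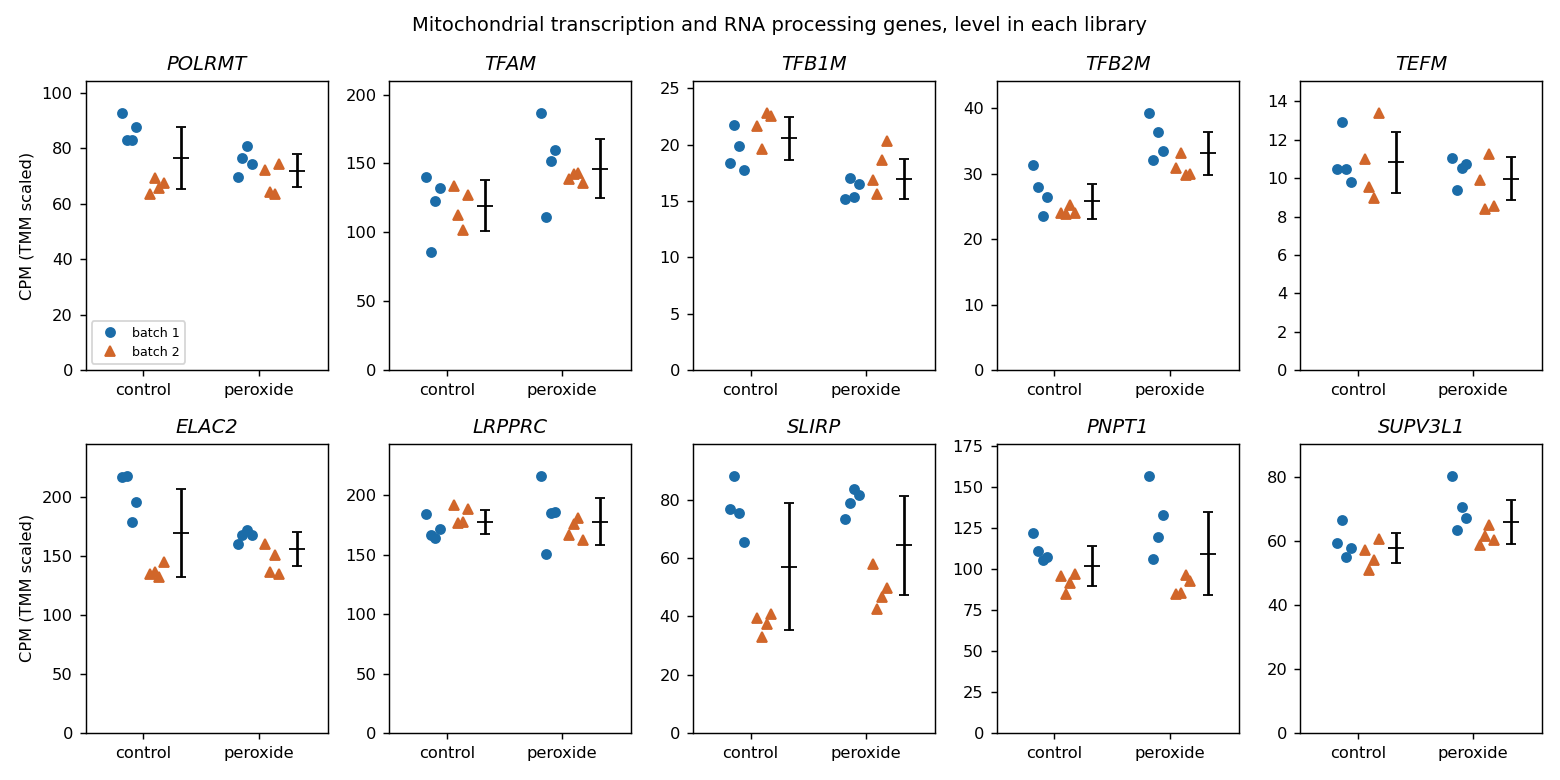
Level of each gene (CPM, TMM scaled) in every control and peroxide library, with batch 1 as blue circles and batch 2 as orange triangles; black bars give the mean and SD of the 8 libraries. TFB2M is higher and TFB1M lower after peroxide, while SLIRP and ELAC2 in controls differ mainly between batches.

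The polymerase gene itself, POLRMT, had 63.6 CPM in its lowest control, a median of 76.2 and a highest value of 92.6. After peroxide the lowest, median and highest values were 63.5, 73.2 and 80.8 CPM. The groups overlapped over all libraries, but in batch 1 the 4 peroxide libraries (69.5 to 80.8 CPM) lay below the 4 controls (82.9 to 92.6 CPM). The log2 fold change was -0.08 ± 0.06 (SE; adjusted p = 0.286, edgeR), with a 95% interval of -0.20 to 0.04. It was -0.20 in batch 1 and 0.04 in batch 2, a difference that was not called (adjusted p = 0.184, edgeR). The batch 1 value depended on the fit, with an adjusted p of 0.0349 in the fit to all libraries and 0.0706 with batch 1 fitted alone (edgeR).

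TFAM, the packaging and promoter-bending factor, rose. Its control libraries ran from 85.8 CPM through a median of 124.9 to 140.0 CPM, and its peroxide libraries from 111.5 through 142.6 to 186.5 CPM. In 5 of 8 peroxide libraries the level was above every control, and the lowest library of each group was replicate 2. This was a log2 fold change of 0.29 ± 0.10 (SE; adjusted p = 0.0174, edgeR), or 1.22-fold. In batch 2 the groups did not overlap, with 102.0 to 133.6 CPM in controls and 135.8 to 142.9 CPM after peroxide. In batch 1 they overlapped. Within batches the log2 fold change was 0.34 in batch 1 (adjusted p = 0.0535, edgeR) and 0.24 in batch 2 (adjusted p = 0.178, edgeR). With each batch fitted alone TFAM was called in batch 2 (adjusted p = 0.0309, edgeR) and not in batch 1 (0.0991). Over all libraries the call was lost when total counts set the scale (0.23, adjusted p = 0.0545, edgeR).

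TFB2M, the initiation factor, had the largest rise of the 10. The controls held 23.5 CPM at the lowest, 24.6 at the median and 31.3 at the highest, and the peroxide libraries 29.8, 32.6 and 39.2 CPM. Of the peroxide libraries 5 of 8 were above every control, and control 1 was the control that reached into the peroxide range. Within each batch the groups were apart, with at most 31.3 CPM in controls and at least 32.1 CPM after peroxide in batch 1, and 25.2 against 29.8 CPM in batch 2. The log2 fold change was 0.36 ± 0.07 (SE; adjusted p = 0.000155, edgeR), or 1.28-fold. It was 0.37 in batch 1 and 0.35 in batch 2, and TFB2M stayed called under every alternative and without any single library.

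TFB1M, the related protein that methylates the small mitochondrial ribosomal RNA, was the 1 member that fell. Control levels were 17.7 CPM at the lowest, 20.8 at the median and 22.8 at the highest, and peroxide levels 15.2, 16.7 and 20.4 CPM. In 6 of 8 peroxide libraries the level was below every control, with peroxide 7 and 8 the exceptions. TFB1M fell by 0.27 ± 0.08 on the log2 scale (SE; adjusted p = 0.00503, edgeR), with -0.27 in each batch as well. The groups were apart in batch 1 and overlapped in batch 2. The adjusted p was 0.0513 in batch 1 and 0.0469 in batch 2 in the fit to all libraries, and 0.0630 and 0.0818 with each batch fitted alone (edgeR). In the annotation 7.86% of TFB1M exonic bases also belong to TIAM2 on the other strand, and reads of the 2 genes cannot be told apart there without the strand setting.

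TFB2M and TFB1M descend from a shared methyltransferase family, and their reads were also compared within each library, which removes any scaling between libraries. This pair and 2 others (SLIRP to LRPPRC, SUPV3L1 to PNPT1) were chosen as partners after their values had been seen. TFB2M had the largest rise and TFB1M alone was called lower, so a higher ratio was fixed in advance. Its p-values therefore add no support. Adjustment over 3 pairs does not cover the choice among the 45 pairs of members. Permutations over all libraries took no account of batch. The log2 ratio of TFB2M to TFB1M reads averaged 0.33 ± 0.24 over the 8 controls and 0.97 ± 0.27 (SD) over the 8 peroxide libraries, a difference of 0.64 (exact permutation p = 0.000777, two-sided; 0.00233 adjusted over the 3 pairs). The ratio spanned 0.09 to 0.77 in controls and 0.56 to 1.37 after peroxide, so the groups overlapped over all libraries. Within batch 1 they were apart by a difference of 0.65, and within batch 2 by 0.63 (exact permutation p = 0.0286 each, the smallest that 4 against 4 allows). Adjusted over the 3 pairs of a batch, these exact permutation values became 0.0857 in batch 1 and 0.0286 in batch 2.

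**Figure D3:**
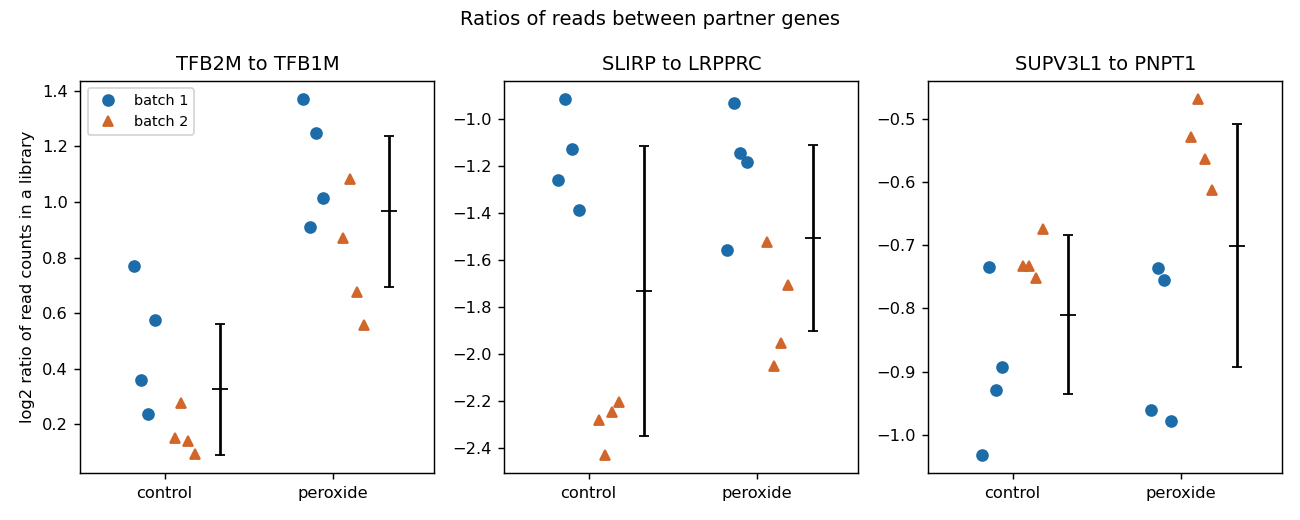
Log2 ratio of read counts between partner genes in each library, for TFB2M to TFB1M, SLIRP to LRPPRC and SUPV3L1 to PNPT1; circles are batch 1, triangles batch 2, and black bars the mean and SD of 8 libraries. The TFB2M to TFB1M ratio is higher after peroxide in both batches, and the other pairs separate by treatment in batch 2 only.

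TEFM, which keeps the polymerase on its template during elongation, was the member with the fewest reads, 65 to 160 per library. Its controls had 8.96 CPM at the lowest, 10.5 at the median and 13.4 at the highest, and its peroxide libraries 8.37, 10.2 and 11.3 CPM. The groups overlapped in both batches. The log2 fold change was -0.10 ± 0.10 (SE; adjusted p = 0.433, edgeR), with a 95% interval of -0.32 to 0.11. Its exons share 16.8% of their bases with the antisense gene AC130324.3 and 9.34% with ADAP2 on the other strand.

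ELAC2, the endonuclease that trims the trailing ends of tRNA precursors, differed more between batches than between treatments. Its controls had 132.2 CPM at the lowest, 161.7 at the median and 217.9 at the highest, and its peroxide libraries 134.7, 159.7 and 172.1 CPM. In batch 1 all 4 controls (178.7 to 217.9 CPM) stood above all 4 peroxide libraries (159.8 to 172.1 CPM). In batch 2 the groups overlapped, with 132.2 to 144.7 CPM in controls and 134.7 to 159.7 CPM after peroxide. Over both batches the log2 fold change was -0.10 ± 0.07 (SE; adjusted p = 0.251, edgeR). It was -0.28 in batch 1 (adjusted p = 0.00572, edgeR) and 0.09 in batch 2 (adjusted p = 0.402, edgeR). The difference between these values, 0.36 ± 0.11 (SE), had an adjusted p of 0.0538 in edgeR's test of the interaction, just short of the threshold. It passed with DESeq2 (adjusted p = 0.0107), and also without control 3 or peroxide 2, 6 or 8.

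LRPPRC, which binds and stabilises mitochondrial messenger RNAs, had almost the same mean in both groups. Control levels were 164.5 CPM at the lowest, 176.9 at the median and 192.1 at the highest, and peroxide levels 150.3, 178.2 and 216.4 CPM. The lowest and the highest of all 16 libraries were thus peroxide libraries, replicates 2 and 1. Over both batches the log2 fold change was 0.00 ± 0.07 (SE; adjusted p = 0.978, edgeR), with a 95% interval of -0.13 to 0.14. That interval assumes the same change in both batches. Within batches the value was 0.10 (95% interval -0.07 to 0.28) in batch 1 and -0.10 (-0.28 to 0.08) in batch 2. The difference between these values was not called (adjusted p = 0.348, edgeR).

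SLIRP, the small partner that binds LRPPRC, was the member that differed most between batches. Over all libraries its level was 32.8 CPM at the lowest, 53.1 at the median and 88.2 at the highest in controls, and 42.4, 65.7 and 83.8 CPM after peroxide. In batch 1 both groups were high, at 65.5 to 88.2 CPM in controls and 73.5 to 83.8 CPM after peroxide. In batch 2 both were low and apart, at 32.8 to 40.8 CPM in controls and 42.4 to 57.9 CPM after peroxide. SLIRP rose by a log2 fold change of 0.22 ± 0.08 (SE; adjusted p = 0.0289, edgeR), which came to 0.06 in batch 1 and 0.39 in batch 2. The difference between batches was not called (0.33 ± 0.14, adjusted p = 0.187, edgeR). The call for SLIRP was lost without control 4, 6 or 7 or peroxide 5 or 8, where the adjusted p reached 0.0772 (edgeR). It was lost as well with DESeq2 (0.21, adjusted p = 0.0545), and without both libraries richest in reads not aligned uniquely (0.18, adjusted p = 0.0772, edgeR). SLIRP shares 10.5% of its exonic bases with C14orf178 on the same strand and 4.49% with SNW1 on the other. Over all libraries the share of reads not aligned uniquely averaged 34.1% in controls and 38.3% after peroxide (exact permutation p = 0.107, two-sided). In batch 2 this share differed between the groups. The 4 controls lay between 31.8% and 33.7%, and the peroxide libraries between 35.7% and 45.8% (n = 4 each; two-sided exact permutation p = 0.0286, as small as it can be), while in batch 1 the means were 35.3% and 35.9%. Peroxide 5, 8, 7 and 6, in this order, had 45.8%, 42.8%, 38.7% and 35.7% of such reads and 57.9, 49.8, 46.6 and 42.4 CPM of SLIRP. Batch 1 libraries did not keep such an order. Control 1 had 47.2% of such reads and 76.9 CPM of SLIRP, and control 2 had 32.9% and 88.2 CPM. The part of these reads in the batch 2 values of SLIRP, and of the read ratios that follow, was not tested. The log2 ratio of SLIRP to LRPPRC reads averaged -1.73 ± 0.62 over the 8 controls and -1.51 ± 0.40 (SD) over the 8 peroxide libraries (exact permutation p = 0.391, two-sided). This permutation took no account of batch, and its p-value also holds the spread between batches. In controls the ratio averaged -1.17 in batch 1 and -2.29 in batch 2. In batch 2 alone the ratio was higher after peroxide by 0.48 (exact permutation p = 0.0286, the smallest possible, and 0.0286 adjusted over the 3 pairs). The pair was chosen with the levels known. SLIRP was already apart in batch 2 and LRPPRC had a log2 fold change of -0.10 there, so these p-values add no support. In batch 1 the difference was -0.03 (exact permutation p = 0.829).

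PNPT1, the phosphorylase of the mitochondrial degradosome, spanned 84.6 to 121.8 CPM in controls with a median of 101.0, and 84.9 to 156.6 CPM after peroxide with a median of 100.9. The groups overlapped in both batches. The log2 fold change was 0.09 ± 0.07 (SE; adjusted p = 0.341, edgeR), with a 95% interval of -0.06 to 0.24. Within batches it was 0.21 in batch 1 (adjusted p = 0.0855, edgeR) and -0.03 in batch 2 (adjusted p = 0.808, edgeR). The difference between these values was not called (adjusted p = 0.310, edgeR). SUPV3L1, the helicase that works with PNPT1, rose. Its controls had 50.9 CPM at the lowest, 57.7 at the median and 66.8 at the highest, and its peroxide libraries 58.8, 64.2 and 80.5 CPM. In 3 of 8 peroxide libraries the level was above every control, and the groups overlapped in each batch. Its log2 fold change was 0.24 in batch 1 (adjusted p = 0.0284, edgeR) and 0.14 in batch 2 (adjusted p = 0.198, edgeR). With each batch fitted alone it was called in neither, with an adjusted p of 0.0719 in batch 1 and 0.137 in batch 2 (edgeR). Over both, SUPV3L1 had a log2 fold change of 0.19 ± 0.06 (SE; adjusted p = 0.0140, edgeR), and the call was lost with total counts (0.13, adjusted p = 0.0746, edgeR) and with no filter (0.14, adjusted p = 0.192, edgeR). The log2 ratio of SUPV3L1 to PNPT1 reads averaged -0.81 ± 0.13 over the 8 controls and -0.70 ± 0.19 (SD) over the 8 peroxide libraries (exact permutation p = 0.198, two-sided). Batch was again left out of this permutation. In batch 2 alone, where reads not aligned uniquely also differed, the ratio was higher by 0.18 after peroxide (exact permutation p = 0.0286, the smallest possible, and 0.0286 adjusted over the 3 pairs). This pair too was chosen with the levels known, so these p-values add no support.

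**Figure D4:**
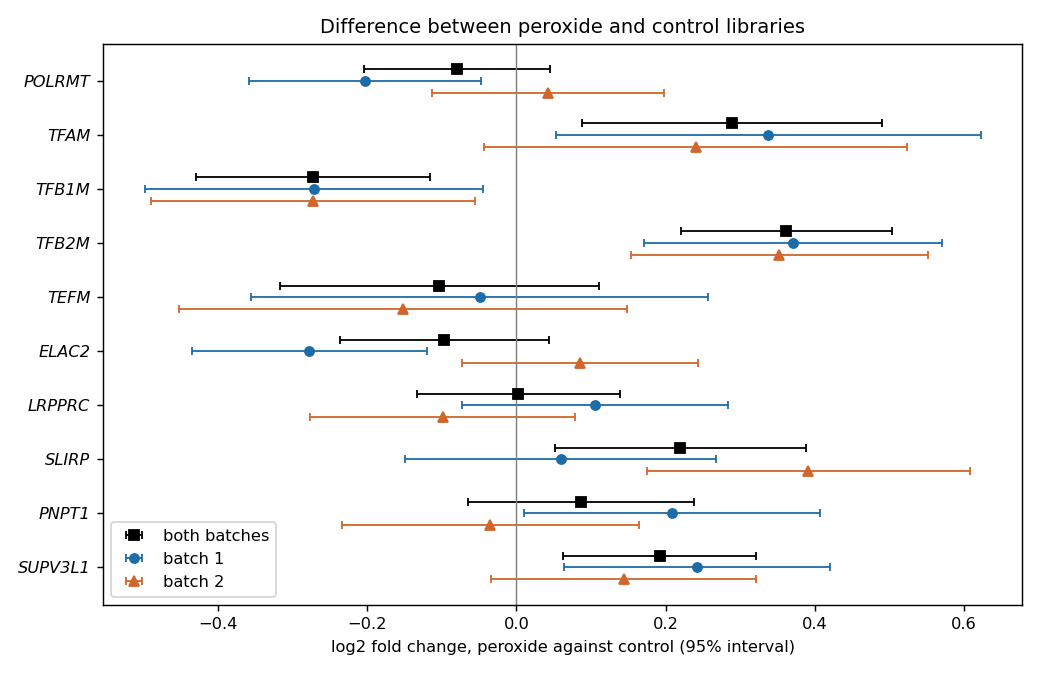
Log2 fold change of each gene, peroxide against control, with 95% intervals, over both batches (black squares) and within batch 1 (blue circles) and batch 2 (orange triangles). TFB2M and TFB1M have nearly the same value in each batch, while ELAC2, with -0.28 and 0.09, and SLIRP, with 0.06 and 0.39, do not.

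Between batches, 5 of the 10 members were called, against 51.2% of all genes called in either direction. All 5 were lower in batch 2, against 25.9% of all genes called lower. SLIRP differed by -0.86 ± 0.08 on the log2 scale (SE; adjusted p = 3.56e-08, edgeR), PNPT1 by -0.40 ± 0.07 and ELAC2 by -0.38 ± 0.07. POLRMT differed by -0.26 ± 0.06 and TFB2M by -0.18 ± 0.07 (SE). The TFB2M call was lost without control 1, 2 or 6 or peroxide 1, 3, 7 or 8. This direction depended on the scaling. With total counts ELAC2 (-0.26), SLIRP (-0.73) and PNPT1 (-0.27) were still called lower in batch 2, POLRMT and TFB2M were not called, and TFB1M was called higher (0.29, adjusted p = 0.00341, edgeR). Under both scalings the batch difference of SLIRP was larger in size than the treatment difference of any member. For the interaction of batch and treatment, edgeR called 0 of the 10 members, against 4.88% of all genes. At an unadjusted p under 0.05 stood 3 of the 10, POLRMT (0.0310), ELAC2 (0.00284) and SLIRP (0.0317), against 21.3% of all genes, and DESeq2 called ELAC2.

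Likeness between genes was described by the correlation of log2 CPM over the 16 libraries after the mean of each batch and group was taken out, which leaves library-to-library variation that depth and RNA makeup also share. Among the 45 pairs of members the median Pearson r was 0.22. The highest was LRPPRC with PNPT1 at 0.87, and the lowest TFAM with TFB1M at -0.52. LRPPRC and its partner SLIRP had an r of -0.14. The gene most like each member was the highest of a search over genes averaging at least 5 CPM. Such a search by itself yields high values, and no test was made. Outside the group, the gene most like TFAM was TMED5 (r = 0.98), and that most like LRPPRC was SREK1 (0.96). For the others these were GALNT7 for PNPT1 (0.93), ENSG00000269958 for SLIRP (0.93), SFMBT2 for SUPV3L1 (0.91) and RFC4 for TFB1M (0.90). TUBB2A was most like POLRMT (0.89), EIF3B most like ELAC2 (0.88), FAM13B most like TFB2M (0.88) and OXCT1 most like TEFM (0.87).

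Related genes were counted by lists of their roles, with the same test. The counts of each list stand beside 24.1% of all genes called higher and 24.3% called lower. Whether any list differs from these shares was not tested. Among 7 genes of transcription regulation and termination the median log2 fold change was 0.06, with MTERF2 included, and 2 fell. The seventh, MTERF2, a termination factor family member, had 0.375 to 0.833 CPM in controls and 3.18 to 5.01 CPM after peroxide. In 0 of 8 controls and 8 of 8 peroxide libraries did it reach the level that the filter asks for, so it was kept through the peroxide libraries alone and no test is given. Of the 6 that passed in both groups 0 rose and 2 fell, with a median of -0.0017. MTERF4 and MTERF3 fell, with log2 fold changes of -0.37 and -0.16. The count of 2 that fell became 1 when any 1 of 11 of the 16 libraries was left out. Of 12 genes for RNA cleavage, polyadenylation and turnover 3 rose and 1 fell, with a median of 0.06. PRORP, the nuclease that cuts the leading ends of tRNAs, rose by 0.47 ± 0.10 (SE), from 16.3 ± 3.22 to 23.0 ± 7.50 CPM. The exonuclease REXO2 rose by 0.17 and the nuclease EXOG fell by 0.26. The count of 3 became 1 with DESeq2, total counts, no filter or no batch term, without control 1 and peroxide 5 together, and without control 1 or 7 or peroxide 1, 4 or 6 alone.

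Of the 6 FASTK family genes, which act on individual mitochondrial RNAs, FASTKD5 rose, with a log2 fold change of 0.39, and TBRG4 (-0.32) and FASTKD2 (-0.26) fell. The family's median was -0.07. Of 20 tested genes for ribosomal RNA modification and ribosome assembly 1 rose and 4 fell, with a median of -0.10. RPUSD4, a pseudouridine synthase, rose by 0.46 ± 0.06 (SE), and MRM1, a ribose methyltransferase, fell by 0.78 ± 0.14 (SE), from 29.7 ± 4.96 to 17.2 ± 4.77 CPM. The GTPase MTG2 fell by 0.24. With total counts 1 of the 20 rose and 7 fell. Of 17 genes for tRNA modification 5 rose and 4 fell, against 24.1% and 24.3% of all genes, with a median of 0.00. TRMT5 fell by 0.48, DUS2 fell by 0.45, and ALKBH1 rose by 0.39. With no filter 2 of the 17 were called higher.

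Of 14 genes for mitochondrial DNA replication, TFAM among them, 5 rose and 1 fell, against 24.1% and 24.3% of all genes. The median of the list was 0.02. POLG2, the accessory subunit of the mitochondrial DNA polymerase, rose by 0.67 ± 0.10 (SE), from 57.0 ± 5.65 to 91.7 ± 21.4 CPM. SSBP1, the single-strand binding protein, rose by 0.20, and the ligase LIG3 fell by 0.33. The balance of this list depended on the setting, with 2 higher and 3 lower both with total counts and with no filter. Of 13 tested nuclear regulators of mitochondrial biogenesis 6 rose and 3 fell, with a median of 0.17. ATF5, a stress-responsive factor, rose by 1.38 ± 0.16 (SE), from 77.5 ± 54.6 to 177.7 ± 76.1 CPM. GABPB1, the partner of GABPA, rose by 0.60, and the coactivator PPARGC1B fell by 0.51.

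**Figure D5:**
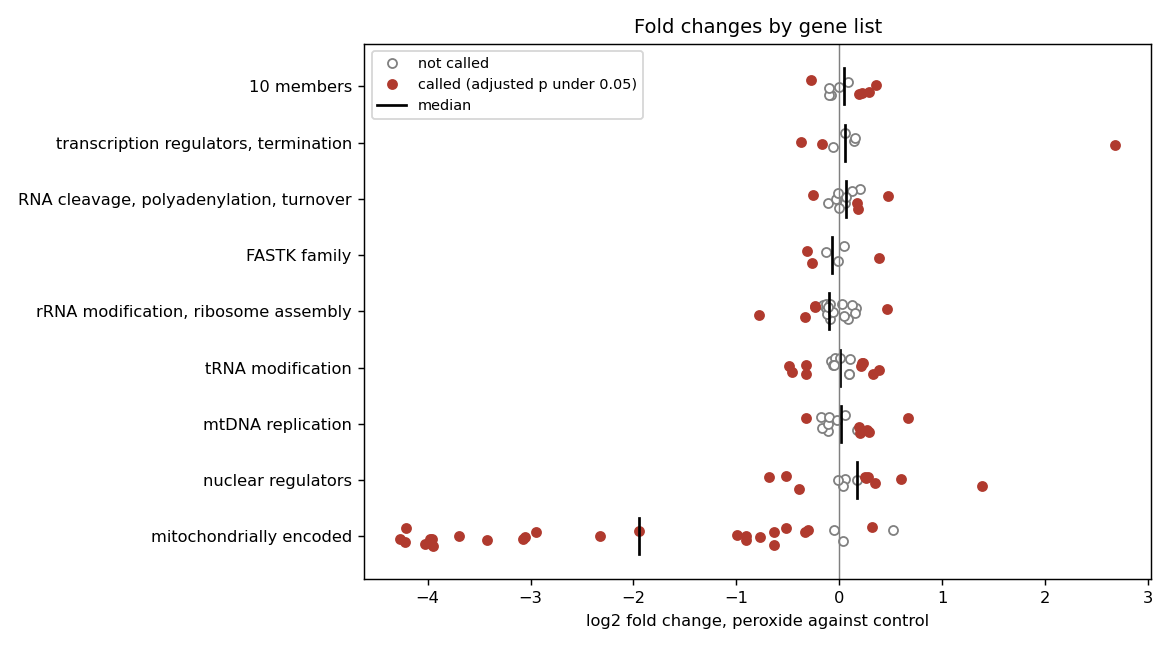
Log2 fold change, peroxide against control, of the 10 members and of each tested gene in 8 related lists; filled red points were called at an adjusted p under 0.05, open points were not, and the black bar is the median of the list. The members span -0.27 to 0.36, and the mitochondrially encoded genes have a median of -1.95, or -0.63 without their 12 tRNA genes. MTERF2 and most of those tRNA genes passed the filter through 1 group only, so their filled points are not read as test results.

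The mitochondrially encoded genes, whose RNAs this machinery makes and processes, held 2.98% ± 0.219 of reads in genes over the 8 controls and 1.77% ± 0.304 (SD) over the 8 peroxide libraries (two-sided exact permutation p = 0.000155, the smallest possible). The groups were apart in each batch. Of 15 messenger and ribosomal RNA genes 11 fell and 1 rose, against 24.3% and 24.1% of all genes. The median log2 fold change of these 15 genes was -0.63. Both MT-ND6, at -3.05 ± 0.14, and MT-ND5, at -2.32 ± 0.11 (SE), fell, and both encode subunits of respiratory complex I. MT-ND2, another such subunit, rose by 0.32, a call that was lost with no batch term. MT-RNR1 (0.52), MT-ATP6 (-0.05) and MT-ATP8 (0.04) were not called. These last 4 genes were named after their values had been seen.

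The 12 tested tRNA genes are given as levels, since 10 of them passed the filter through the controls alone. Their means ran from 2.26 to 17.6 CPM in controls and from 0.190 to 1.90 CPM after peroxide. MT-TY had 10.5 to 14.7 CPM in controls and 0.361 to 1.06 CPM after peroxide. With the tRNA genes the median of the 27 tested genes was -1.95, and it thus rests on them. Counts per gene do not tell mature tRNAs from their precursors. A link between these differences and those of the 10 members was not tested.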

How the data were processed

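The deposited values are read counts per gene, 1 table per library, made with STAR 2.7.1a and HTSeq 0.6.1 on hg19, per the submitters' processing notes. Per the labels' protocols, TRIzol was used for RNA and a TruSeq kit for the libraries. Annotation, counting mode and strand setting were not given in the sources used here. Because the named build and the versions of the identifiers could not be reconciled, coordinates are printed only for RefSeq promoter windows. Rows that name no gene held 43.5% to 57.6% of counted reads and were left out. Reads in genes were 5556553 to 15720881 per library.

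Symbols were matched for 60402 of 60662 identifiers after the version was dropped. edgeR 4.0.16 (R 4.3.3) was used with filterByExpr on group, TMM factors and the quasi-likelihood test with terms for batch and group, Benjamini-Hochberg adjusted over the 14092 genes kept, which held 99.6% of reads in genes. The script was tested on simulated data. Each standard error is the size of the log2 fold change over the root of its F value. Exact permutations over all libraries took no account of batch. Alternatives were DESeq2 1.42.0, limma 3.58.1 (voom), other scalings, filters and terms, each batch alone, and leaving out libraries. The 24 pairs of libraries within a batch and group differed beyond sampling noise (chi-square per degree of freedom 2.96 to 18.2), so all were kept. Pseudogenes named after members held 0 to 19 reads over all libraries.

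The members and lists were chosen with earlier results of these data known. Named genes are all members, from each list up to 3 called genes of smallest p that averaged at least 1 CPM, and for each member the gene most like it at a mean of 5 CPM or more. NRF1 was named after its values were seen.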

Additional observations from a re-analysis of the deposited data

Results flagged for a closer look

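Of 24 groups of 8 values tested for a library far from the rest, 1 stood apart. Reads not aligned uniquely made up 47.2% of counted reads in control 1, while the next highest control had 33.7%. Chance alone flags about 1 in 20 such groups. Without control 1 alone 4 members were called higher and 1 lower, and without control 1 and peroxide 5 together SLIRP was no longer called.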

How the results depend on the processing

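Counts of members called were 3 to 4 higher and 1 lower when any 1 library was left out. Higher members numbered 1 with total counts or in batch 1 alone and 2 with no filter, and 0 were lower in batch 2 alone. With no filter 5150 of all genes were called higher, against 3391 of the 14092 genes kept by the filter. Of the related nuclear lists 13 genes were higher with no filter and 21 with it. The 21 take in MTERF2, which was kept through the peroxide libraries alone, so its call is not read as a test result. TFB2M kept its direction and its call under every alternative. The cause of the changes given here was not tested, except that a batch alone and the settings without libraries hold fewer samples. The median log2 fold change of all genes shifted by 0.17 with DESeq2 and by 0.12 with no filter, where more genes of low count enter. The 0.00 of LRPPRC changed sign with DESeq2 (-0.0099), limma-voom (-0.0027), total counts (-0.058), no filter (-0.049) and in batch 2 alone (-0.097), and ranged from -0.050 to 0.032 without single libraries. SLIRP was no longer called with DESeq2 (0.21), total counts (0.16), no filter (0.17), no batch term (0.18), batch 1 alone (0.056) and without control 1 and peroxide 5 (0.18), and ranged from 0.17 to 0.26 without single libraries. Calls were lost for TFAM with total counts (0.23) and in batch 1 alone (0.34), and for TFB1M in batch 1 (-0.27) and batch 2 alone (-0.27). They were lost for SUPV3L1 with total counts (0.13), no filter (0.14), batch 1 alone (0.24) and batch 2 alone (0.15). In batch 1 alone ELAC2 was called at -0.28, and in batch 2 alone it stood at 0.087, POLRMT at 0.043 and PNPT1 at -0.033, on the other side of 0.

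For batch 2 against batch 1, SUPV3L1 was called with DESeq2 (-0.16), RLE size factors (-0.16) and TMM without mitochondrial genes (-0.15), and ranged from -0.17 to -0.11 without single libraries. TFB2M lost its call with total counts (-0.053), no filter (-0.17), the 5 CPM filter (-0.16) and without control 1 and peroxide 5 (-0.14), and ranged from -0.21 to -0.14. Total counts gave -0.13 for POLRMT, no longer called, 0.29 for TFB1M, now called, and turned TFAM to 0.051, TEFM to 0.047 and LRPPRC to 0.12. LRPPRC also turned with no filter (0.0089), the 5 CPM filter (0.016) and without control 1 and peroxide 5 (0.017), and ranged from -0.039 to 0.043. TFB1M ranged from 0.13 to 0.19 without single libraries. For the interaction, ELAC2 was called with DESeq2 (0.39), total counts (0.36) and the 5 CPM filter (0.38), and ranged from 0.32 to 0.42. The interaction of TFB1M, near 0, turned with DESeq2 (0.022), RLE (0.012), total counts (0.0018), no filter (0.025), the 5 CPM filter (0.015) and without control 1 and peroxide 5 (0.055), and ranged from -0.067 to 0.061. That of TFB2M turned with DESeq2 (0.0065) and no filter (0.0075) and ranged from -0.065 to 0.069. Without single libraries it ranged from -0.21 to 0.052 for TFAM, from -0.20 to 0.016 for TEFM and from -0.14 to 0.0047 for SUPV3L1. The SLIRP to LRPPRC read ratio differed by -0.033 in batch 1 alone and by 0.48 in batch 2 alone, and the SUPV3L1 to PNPT1 ratio by 0.18 in batch 2 alone.

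Replicate numbers are shared by the groups, but same-numbered libraries had correlations of -0.17 to 0.20 and 1 of 8 correlated best with its own number, so the numbers were not taken as pairs. With the replicate block 4 members were higher and 1 lower, 3313 of all genes were higher and 3374 lower, and LRPPRC stood at -0.0017. Of the related lists, transcription regulation had 1 lower with that block or no batch term. Its 1 gene counted as higher in the main fit was MTERF2, kept through the peroxide libraries alone. With the 5 CPM filter that count was 0. The mitochondrially encoded genes, counted with their tRNA genes, had 1 higher and 23 lower of 27 in the main fit. These counts became 2 higher with no filter and 14 lower with the 5 CPM filter. Most of the tRNA genes passed the main filter through the controls alone, so their calls are not read as test results.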
